A study of Mus musculus with 16 samples.

Results

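The 9 genes described here form a set of duct and epithelial genes of the mouse islet, and they were found by matching the mouse Ensembl identifiers of the count table to the symbols *Krt19*, *Krt7*, *Krt8*, *Krt18*, *Sox9*, *Cftr*, *Spp1*, *Epcam* and *Upk3a*. All 9 had a row among the 52636 genes of the table. RNA was sequenced from islets of 12-week-old male mice after 10 days of culture in 4 conditions, with 4 libraries each and 16 in all. The conditions were islets left untreated (control) and islets exposed to IL-1β at 50 pg/mL, to sodium butyrate at 0.2 mM, or to both agents together. Every library came from 500 islets that had been pooled from several mice and kept in medium with human serum, so a replicate is an experiment on pooled islets and the p-values measure the spread between such experiments. The strain was C57BL/6JRj in the labels and C57BL/6NRj in the study's methods. Total counts per library ranged from 18635943 to 25955943.

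Islets are clusters of endocrine cells that arise from the duct-like epithelium of the embryonic pancreas, and exocrine duct cells lie around them and can come along when islets are isolated. Keratins are intermediate filament proteins that assemble as pairs of one type I partner (*Krt18*, *Krt19*) and one type II partner (*Krt7*, *Krt8*). *Epcam* encodes a cell adhesion molecule of epithelial cells, endocrine cells included, *Sox9* a transcription factor of duct and progenitor cells, and *Cftr* the chloride and bicarbonate channel of duct cells. *Spp1* encodes osteopontin, a secreted phosphoprotein made by duct cells, macrophages and other cells, and *Upk3a* encodes a uroplakin, a membrane protein best known from the umbrella cells of the bladder. IL-1β is an inflammatory cytokine to which beta cells are sensitive, and butyrate is a product of bacterial fermentation in the gut. In bulk RNA of whole islets, a lower level can come from fewer cells of a type or from less RNA per cell, and these cannot be told apart.

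The 9 genes did not behave as 1 set, neither in level nor in response. *Krt18*, *Krt7*, *Epcam* and *Krt8* were among the well expressed genes of control islets, whereas *Krt19*, *Sox9* and *Cftr*, which are markers of duct cells, were low or near 0. IL-1β raised *Spp1* 13.3-fold and lowered *Upk3a* 5.39-fold, and it raised *Krt8*, *Krt7* and *Epcam* by 1.40-fold or less. Levels are given as CPM, the count of a gene per 1000000 counts of its library after scaling with TMM, and for a comparison between genes as CPM per kilobase of the longest coding transcript.

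Per kilobase, *Krt18* was the highest of the 9 genes in control islets, with a level of 108 CPM per kb, followed by *Krt7* (82.1), *Epcam* (56.1) and *Krt8* (44.2). *Upk3a* (17.0) and *Spp1* (7.88) were intermediate, and *Krt19* (0.905), *Sox9* (0.494) and *Cftr* (0.0121) were the lowest. In this order, the 4 control libraries of each gene did not overlap with those of the next gene. Among the 18587 genes that passed the filter on low counts, *Krt18* was at percentile 98.2 of the control level per kilobase, *Krt7* at 97.2, *Epcam* at 95.4, *Krt8* at 93.8, *Upk3a* at 80.8 and *Spp1* at 64.9. *Krt19* stood at percentile 32.7 and *Sox9* at 24.1. *Cftr* did not pass the filter and its level was below that of all but 0.108% of the tested genes. The duct markers *Krt19*, *Sox9* and *Cftr* were thus low, but *Spp1*, which duct cells also make, was at percentile 64.9. The genes that lead the set are keratins of simple epithelia and *Epcam*. Markers of a cell type that is rare among the islet cells can be low in bulk RNA. These levels therefore cannot decide how well the name of duct genes describes the set.

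**Figure D1:**
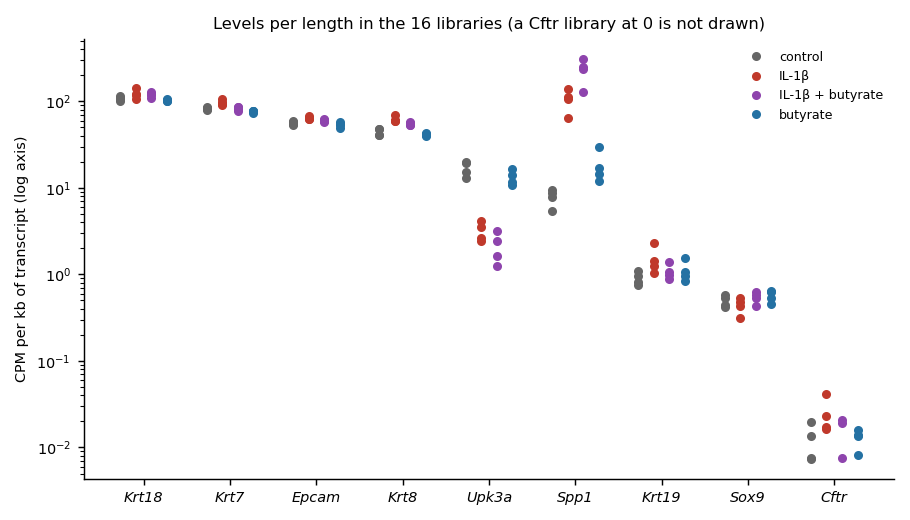
Level of each gene in CPM per kilobase of transcript (vertical axis, logarithmic) for the 9 genes (horizontal axis), with 1 point per library and colours for the 4 conditions. In control islets the means of *Krt18*, *Krt7*, *Epcam* and *Krt8* lie between 108 and 44.2 CPM per kb and those of *Krt19*, *Sox9* and *Cftr* between 0.905 and 0.0121, while *Spp1* moves from 7.88 in control to 231 CPM per kb with IL-1β plus butyrate.

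The order changed with the condition at the place of *Spp1* and *Upk3a*. With IL-1β, *Spp1* (105 CPM per kb) came second after *Krt18* (122), and its lowest library (64.0) was within the ranges of *Epcam* and *Krt8*, so that it overlapped with those 2 genes as well as with *Krt18* and *Krt7* (96.3). *Epcam* and *Krt8* also overlapped with each other there. With IL-1β plus butyrate, *Spp1* was first at 231 CPM per kb, overlapping only with *Krt18* (119) below it, and *Upk3a* (2.13) overlapped with *Krt19* (1.07). With butyrate alone, *Spp1* (18.4) and *Upk3a* (13.2) overlapped.

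**Figure D2:**
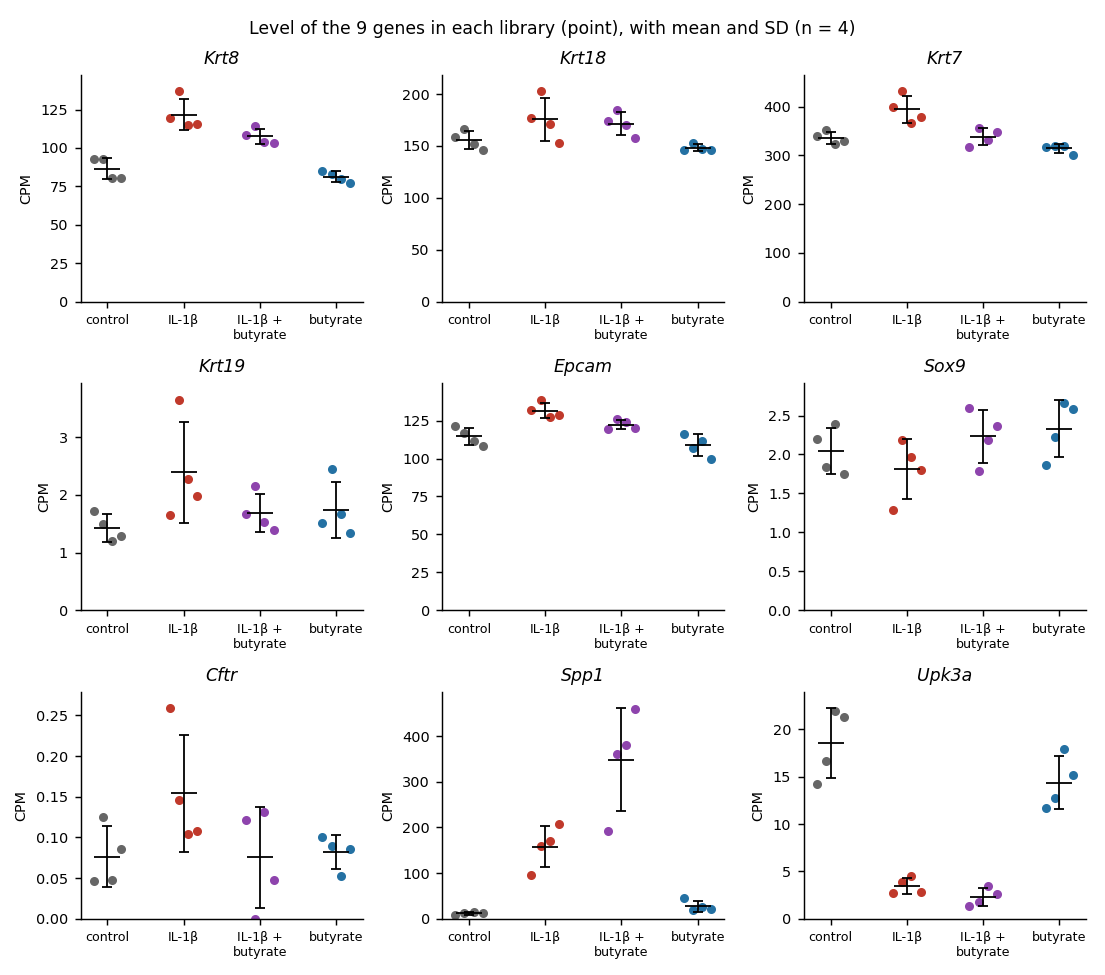
CPM (vertical axes, linear from 0) of each of the 9 genes in the 4 conditions, with 1 point per library, the mean as a long bar and the SD as whiskers (n = 4). *Krt8*, *Spp1* and *Upk3a* separate the libraries with IL-1β from those without it, *Cftr* stays at or below 0.259 CPM, and a single IL-1β library of *Krt19* stands at 3.65 CPM.

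The first comparison asked what 10 days of IL-1β did to these genes. By edgeR's quasi-likelihood test with a Benjamini-Hochberg adjusted p (FDR) below the study's threshold of 0.01, 5 of the 8 tested genes were called, 4 of them higher and 1 lower, where 17.8% of all 18587 tested genes were called, 11.2% higher and 6.59% lower. The CPM of both conditions did not overlap for 5 of the 8, against 24.7% of all tested genes. The median log2 fold change of the 8 genes was 0.22, and that of all tested genes was -0.03. These genes were chosen with earlier results of these data known. Here and in the other comparisons, their calls, overlaps and ranks beside all tested genes therefore describe the chosen genes only. Such values cannot decide whether the set as a whole stands out from all tested genes.

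*Spp1* (ENSMUSG00000029304, GRCm38 chr5:104435118-104441050, plus strand) had 8.12, 11.8, 14.4 and 13.2 CPM in the 4 control libraries. With IL-1β it had 96.4, 160.1, 169 and 207 CPM. Every IL-1β library was above every control library. The log2 fold change was 3.74 (SE 0.38, edgeR FDR 7.44e-06), and by size of fold *Spp1* had rank 58 among the 2087 genes that IL-1β raised. The gene shares 309 exon bases, 18.8% of its own, with *Gm42793* on the same strand, which had 0 to 19 counts.

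With both agents *Spp1* reached 192, 361, 381 and 459.7 CPM, and each of these libraries was above every control and every butyrate library. Against control it was 29.3-fold higher (log2 4.87, SE 0.39, edgeR FDR 3.59e-07), rank 39 among the 2937 raised genes. Against butyrate alone it was 12.6-fold higher (log2 3.66, SE 0.35, edgeR FDR 5.35e-06). Against IL-1β alone the difference was 1.13 on the log2 scale (95% interval 0.46 to 1.81, edgeR FDR 0.0143), which missed the threshold, and the lowest library with both agents lay within the range of the IL-1β libraries. This last comparison passed with DESeq2 (log2 1.12, FDR 0.0039), without IL-1β plus butyrate replicate 1 (1.32, edgeR FDR 0.00435) and without butyrate replicate 1 (1.13, edgeR FDR 0.00857).

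Butyrate alone gave 45.1, 18.1, 25.8 and 21.9 CPM of *Spp1*, all above the highest control library, with replicate 1 well above the other 3. The log2 fold change against control was 1.21 (95% interval 0.33 to 2.10, edgeR FDR 0.0404), which missed the threshold. DESeq2 called it (1.22, FDR 0.00187), and without butyrate replicate 1 it was 0.88 (edgeR FDR 0.131). Macrophages are a known source of osteopontin, and the summed level of 16 macrophage markers was 143 to 155 CPM in control, 227 to 308 with IL-1β, 119.9 to 179 with both agents and 95.1 to 113 with butyrate. Most of the control level came from *C1qa*, and without it, a choice made after its values were seen, the other 15 summed to 30.4 to 43.8, 136 to 240.1, 61.7 to 134 and 21.3 to 34.0 CPM, in this order. The macrophage markers thus stood lower with both agents than with IL-1β alone, whereas the mean of *Spp1* was 348 CPM with both agents and 158 with IL-1β alone, and their part in the level of *Spp1* was not tested.

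*Upk3a* (ENSMUSG00000022435, chr15:85017141-85022547, plus strand) had 14.3, 16.7, 21.9 and 21.3 CPM in control islets. With IL-1β it had 2.69, 3.85, 4.51 and 2.85 CPM. All IL-1β libraries were below all control libraries. The log2 fold change was -2.43 (SE 0.24, edgeR FDR 2.48e-06), rank 4 by size of fold among the 1224 genes that IL-1β lowered. With both agents the level was 1.38, 1.78, 3.50 and 2.65 CPM, 8.02-fold below control (log2 -3.00, SE 0.25, edgeR FDR 2.58e-07) and 6.21-fold below butyrate alone (log2 -2.64, SE 0.26, edgeR FDR 2.92e-06). Among the 903 genes lowered in the latter comparison it again had rank 4.

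Butyrate alone gave 11.7, 12.7, 17.9 and 15.2 CPM of *Upk3a*, which overlapped with control, and the difference was -0.37 on the log2 scale (95% interval -0.79 to 0.05, edgeR FDR 0.188). On top of IL-1β the difference was -0.57 (95% interval -1.25 to 0.10, edgeR FDR 0.196). With the replicate number as a block, an alternative fit, both differences were called lower (edgeR FDR 0.000232 against control and 0.00242 on top of IL-1β). The labels do not say that equal numbers mark the same experiment, but correlations between same-numbered libraries hint at it. Whether *Upk3a* was called lower with butyrate therefore depends on this choice of fit. The other uroplakin genes were low. Of 5 (*Upk1a*, *Upk1b*, *Upk2*, *Upk3b*, *Upk3bl*), 1 was tested, *Upk3b*, with -0.71 on the log2 scale for IL-1β against control (edgeR FDR 0.116), and their summed level was between 0.517 and 1.55 CPM over the 16 libraries. *Upk3b* and *Upk1b* are also markers of the mesothelium, the lining of the abdominal organs. Of 8 mesothelial markers, 5 were tested. With IL-1β, edgeR and DESeq2 called 0 of them and 2 were lower at an unadjusted p under 0.05, with a median log2 fold change of -0.60. The sum of the 8 was 43.8 to 67.0 CPM in control and 45.8 to 56.2 with IL-1β, and most of it came from *Msln*. Without *Msln*, a choice made after its values were seen, the other 7 summed to 6.59 to 7.84 CPM in control and 4.96 to 7.25 with IL-1β, which overlapped.

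The windows from 250 bases before to 50 bases after the start of these 2 genes and of the keratin pair *Krt8* and *Krt18* are shown because *Spp1* and *Upk3a* had the largest fold changes of the set, in opposite directions, and *Krt8* passed the threshold with IL-1β where its partner did not. They are RefSeq sequences of GRCm38.p6, written 5′ to 3′ on the strand of the gene, with every match to 1 of 6 motifs in capitals. The windows are chr5:104434861-104435160 (plus) for *Spp1*, chr15:85016891-85017190 (plus) for *Upk3a*, chr15:102004293-102004592 (minus) for *Krt8* and chr15:102027966-102028265 (plus) for *Krt18*.
Spp1: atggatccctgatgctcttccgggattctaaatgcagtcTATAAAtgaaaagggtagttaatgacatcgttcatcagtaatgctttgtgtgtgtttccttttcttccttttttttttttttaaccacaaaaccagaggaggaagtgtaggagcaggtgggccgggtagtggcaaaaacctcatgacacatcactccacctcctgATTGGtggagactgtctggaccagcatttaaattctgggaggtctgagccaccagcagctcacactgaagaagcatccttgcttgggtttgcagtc
Upk3a: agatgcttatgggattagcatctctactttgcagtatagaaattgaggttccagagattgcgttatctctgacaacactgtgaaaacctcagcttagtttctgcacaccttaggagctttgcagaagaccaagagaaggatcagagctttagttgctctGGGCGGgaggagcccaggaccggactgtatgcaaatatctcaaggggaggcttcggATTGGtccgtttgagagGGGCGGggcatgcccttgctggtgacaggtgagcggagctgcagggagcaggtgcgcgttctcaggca
Krt8: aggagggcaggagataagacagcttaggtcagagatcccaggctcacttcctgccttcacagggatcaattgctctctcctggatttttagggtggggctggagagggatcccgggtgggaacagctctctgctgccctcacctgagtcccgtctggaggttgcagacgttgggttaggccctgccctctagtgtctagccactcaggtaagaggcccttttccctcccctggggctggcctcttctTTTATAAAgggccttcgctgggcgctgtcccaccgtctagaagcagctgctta
Krt18: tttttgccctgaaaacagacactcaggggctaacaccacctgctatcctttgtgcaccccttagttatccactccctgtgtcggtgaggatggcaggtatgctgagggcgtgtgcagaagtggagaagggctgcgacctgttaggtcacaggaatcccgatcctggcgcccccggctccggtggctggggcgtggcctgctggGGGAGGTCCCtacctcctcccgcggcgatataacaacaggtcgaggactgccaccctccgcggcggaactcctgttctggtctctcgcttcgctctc
The motifs, searched on both strands, were the NF-kB motif by name, AP-1 (TGANTCA), STAT (TTCNNNGAA), the GC box (GGGCGG), the CCAAT box (CCAAT) and the TATA box (TATAAA). Their shares among all 32851 windows of this length were 8.46, 7.81, 8.3, 35.7, 37.4 and 13.6%, in this order. The *Spp1* window shown held a CCAAT box at position -46 and a TATA box at position -211 from the start. *Spp1* had a second window (chr5:104435942-104436241, plus), not shown, with none of the 6 motifs. The *Upk3a* window held 2 GC boxes and 1 CCAAT box, and the *Krt8* window a TATA box read on both strands at the overlapping positions -3 and -1. The *Krt18* window held 1 NF-kB match at position -47. Of the 9 genes, 7 had a window in the table, and in none of them were the letters of the AP-1 or STAT motif found. *Krt19* and *Sox9* had no window in this table. A match describes letters only.

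Among the 4 keratins of the set, *Krt8* (ENSMUSG00000049382, chr15:101996698-102004482, minus strand) had the largest called difference with IL-1β. Its control libraries had 92.7, 92.8, 80.2 and 80.7 CPM, and its IL-1β libraries had 119.8, 137, 115 and 115 CPM. All 4 IL-1β libraries were above all 4 control libraries. The log2 fold change was 0.49 (SE 0.059, edgeR FDR 2.95e-07), an increase of 1.40-fold. With both agents the level was 109, 114, 104 and 104 CPM, above control (log2 0.31, SE 0.059, edgeR FDR 0.000107) and above butyrate alone (0.40, SE 0.059, edgeR FDR 7.72e-06). These values lay below all IL-1β libraries, but the difference from IL-1β alone, -0.18 (95% interval -0.30 to -0.06, edgeR FDR 0.022), missed the threshold. It passed in 6 of 24 alternatives, among them no filter on low counts (edgeR FDR 0.004) and leaving out IL-1β replicate 3 or 4 or IL-1β plus butyrate replicate 2 (edgeR FDR of 0.00819 to 0.00923). Butyrate alone gave 85.3, 82.9, 79.6 and 77.0 CPM, overlapping with control (-0.09, 95% interval -0.22 to 0.03, edgeR FDR 0.267). The processed pseudogene *Krt8-ps* had 1 to 6 counts, and a lincRNA on the opposite strand shares 101 exon bases with *Krt8*.

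*Krt7* (ENSMUSG00000023039, chr15:101411043-101430313, plus strand), the other type II keratin, had 339.5, 352, 322 and 330.02 CPM in control. With IL-1β it had 399.5, 431, 367 and 379 CPM, above all control libraries (log2 0.23, SE 0.050, edgeR FDR 0.000851). With both agents it had 317, 357, 332 and 348 CPM, below all IL-1β libraries and overlapping with the control libraries. The difference between both agents and IL-1β alone was -0.22 (SE 0.050, edgeR FDR 0.00137), and *Krt7* was the only one of the 8 tested genes called there. It was not called when only the 8 libraries of these 2 conditions entered the fit (-0.21, edgeR FDR 0.0102). The IL-1β libraries are shared by both comparisons, so the increase and the decrease are not independent of each other. With butyrate alone *Krt7* had 318, 318, 319 and 301 CPM, all below the lowest control library, with a log2 difference of -0.10 (95% interval -0.20 to 0.01, edgeR FDR 0.155).

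*Krt18* (ENSMUSG00000023043, chr15:102028180-102032027, plus strand), the type I partner of *Krt8* and its neighbour on the chromosome, had 158, 167, 151 and 147 CPM in control and 177, 203, 171 and 153 with IL-1β. The libraries overlapped, and the difference of 0.17 on the log2 scale (95% interval 0.04 to 0.30, edgeR FDR 0.0456) missed the threshold. It passed in 5 of 24 alternatives, among them library size only (0.23, edgeR FDR 0.00148), no filter on low counts (0.19, edgeR FDR 0.00296) and leaving out IL-1β replicate 4 (0.25, edgeR FDR 0.00196). The 5 also include the replicate block (edgeR FDR 0.00106) and the threshold of 0.05, which the same fit passes by its FDR of 0.0456. With both agents it had 174, 184, 170.4 and 158 CPM, a difference of -0.03 from IL-1β alone (95% interval -0.16 to 0.10, edgeR FDR 0.734). Against butyrate alone (146, 153, 147 and 146 CPM) all 4 libraries with both agents were higher, by 0.21 (95% interval 0.08 to 0.34, edgeR FDR 0.0169), which again missed the threshold. This difference passed in 8 of 24 alternatives, among them no filter on low counts (edgeR FDR 5.74e-05), only the conditions compared (edgeR FDR 0.00108) and leaving out IL-1β replicate 2 or 4 or IL-1β plus butyrate replicate 4 (edgeR FDR of 0.00287 to 0.00808). The 8 also include library size only, the replicate block (edgeR FDR 9.6e-05) and the threshold of 0.05, which the same fit passes by its FDR of 0.0169.

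*Krt19* (ENSMUSG00000020911, chr11:100140810-100148665, minus strand) had 25 to 75 counts per library. Its mean ± SD over 4 libraries was 1.43 ± 0.24 CPM in control, 2.39 ± 0.88 with IL-1β, 1.69 ± 0.33 with both agents and 1.74 ± 0.49 with butyrate. The conditions overlapped. IL-1β against control gave 0.74 on the log2 scale (95% interval 0.26 to 1.21, edgeR FDR 0.0179), which fell to 0.47 (edgeR FDR 0.14) without IL-1β replicate 2, the library with 75 counts. It passed in 4 of 24 alternatives, among them no filter on low counts (0.75, edgeR FDR 0.00282) and leaving out IL-1β replicate 1 (0.88, edgeR FDR 0.00462). The other comparisons of *Krt19* passed neither in the fit of all 16 libraries nor in any alternative.

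The ratio of 2 genes within a library does not depend on the scaling between libraries, and 4 such ratios per kilobase were compared in 4 comparisons, a choice made after the values were seen. *Krt8* to *Krt18* was 0.408 ± 0.017 (SD, n = 4) in control, 0.510 ± 0.029 with IL-1β, 0.460 ± 0.015 with both agents and 0.402 ± 0.018 with butyrate. All IL-1β libraries were above all control libraries in this ratio, and all libraries with both agents lay between those of IL-1β alone and those of butyrate alone. *Krt8* to *Krt7* was 0.539 in control, 0.645 with IL-1β, 0.665 with both agents and 0.541 with butyrate, and *Krt8* to *Epcam* was 0.787, 0.962, 0.915 and 0.779. Both ratios were higher in all libraries with IL-1β than in control, and higher in all libraries with both agents than with butyrate. *Krt7* to *Krt18* (0.758, 0.791, 0.694 and 0.744) overlapped in every comparison. Each ratio without overlap had a two-sided exact permutation p of 0.0286, the smallest that 4 against 4 libraries allow, and 0.0653 after adjustment over the 16 tests. No ratio could have reached the threshold of 0.01 with this number of libraries, so these p-values cannot decide whether a ratio differed.

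**Figure D3:**
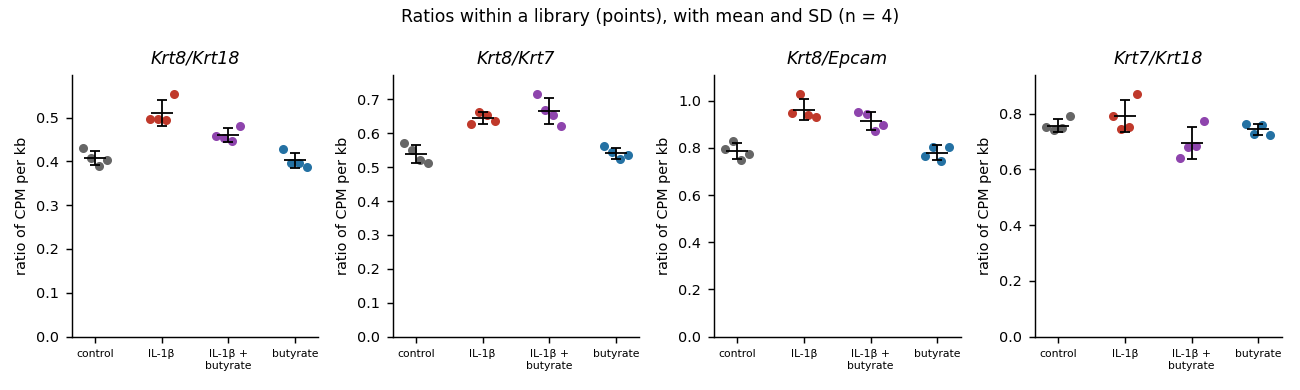
Ratio of the level per kilobase of 2 genes within a library (vertical axes, linear from 0) in the 4 conditions, for *Krt8* to *Krt18*, *Krt8* to *Krt7*, *Krt8* to *Epcam* and *Krt7* to *Krt18*, with 1 point per library, mean and SD (n = 4). The 3 ratios with *Krt8* on top are higher with IL-1β than in control in every library, for example 0.510 against 0.408 for *Krt8* to *Krt18*, and *Krt7* to *Krt18* overlaps.

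*Epcam* (ENSMUSG00000045394, chr17:87635979-87651129, plus strand) had 121, 117, 112 and 109 CPM in control and 132, 139, 127 and 129 with IL-1β. All IL-1β libraries were higher, and the log2 difference was 0.20 (SE 0.049, edgeR FDR 0.00257). The call was lost without control replicate 3, control replicate 4 or IL-1β replicate 2, with an edgeR FDR of at most 0.0169. With both agents *Epcam* had 119, 126, 124 and 120.4 CPM, all below the lowest IL-1β library, with a difference of -0.10 (95% interval -0.21 to -0.0046, edgeR FDR 0.108). Against butyrate alone, which gave 116, 107, 112 and 99.7 CPM, all libraries with both agents were higher, by 0.17 (95% interval 0.07 to 0.27, edgeR FDR 0.0114). Neither of these 2 differences passed the threshold. The latter passed in 10 of 24 alternatives, among them DESeq2 (0.18, FDR 0.00653), no filter on low counts (edgeR FDR 0.00224), only the conditions compared (edgeR FDR 0.00821) and leaving out control replicate 1, IL-1β replicate 1 or 2 or butyrate replicate 1 (edgeR FDR of 0.00449 to 0.00987). The 10 also include library size only, the replicate block (edgeR FDR 0.00111) and the threshold of 0.05, which the same fit passes by its FDR of 0.0114.

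*Sox9* (ENSMUSG00000000567, chr11:112782224-112787760, plus strand) had 25 to 64 counts per library and a mean of 2.04 ± 0.30 CPM in control, 1.81 ± 0.38 with IL-1β, 2.23 ± 0.34 with both agents and 2.33 ± 0.37 with butyrate. All conditions overlapped, and IL-1β against control gave -0.16 (95% interval -0.55 to 0.22, edgeR FDR 0.576). *Cftr* (ENSMUSG00000041301, chr6:18170687-18322768, plus strand) had 0 to 5 counts per library, so no fold is given, and a difference between conditions was not detectable at this depth.

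**Figure D4:**
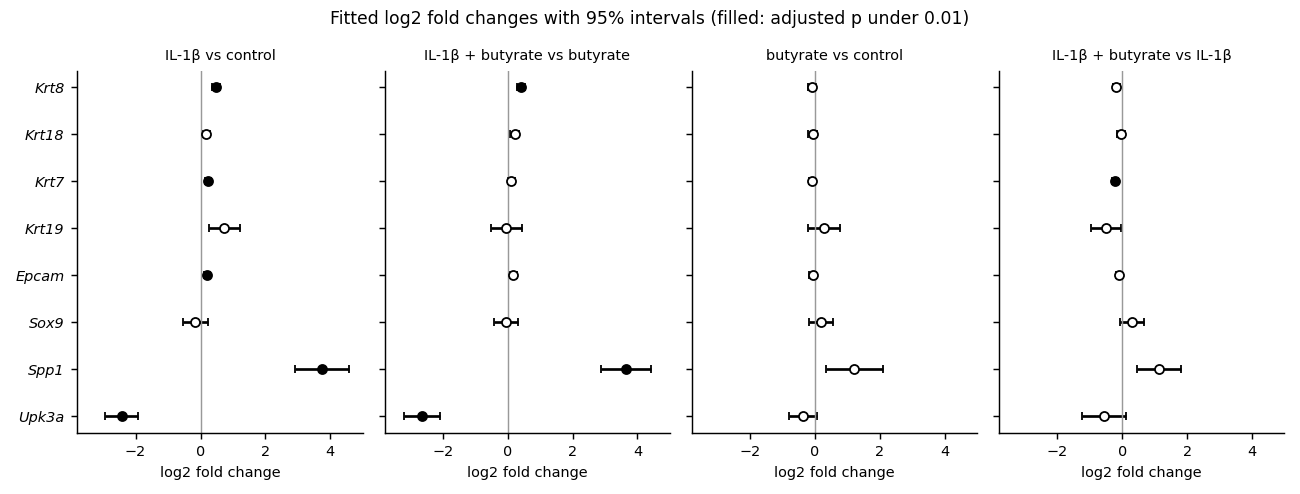
Log2 fold change (horizontal axes) of the 8 tested genes in 4 comparisons, with the 95% interval of the edgeR fit, filled where the adjusted p was under 0.01. *Spp1* and *Upk3a* lie far to either side of 0 with IL-1β, without butyrate (3.74 and -2.43) as well as with it (3.66 and -2.64), and *Krt8* is filled in both, while no gene is filled for butyrate against control.

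Butyrate against control gave 0 calls by edgeR among the 8 tested genes, where 19.9% of all tested genes were called (8.53% higher and 11.4% lower). The CPM of both conditions did not overlap for 2 of the 8, *Spp1* and *Krt7*, against 30.1% of all tested genes. Only *Spp1* had an unadjusted p under 0.05 (0.0111), and DESeq2 called 1 gene, again *Spp1*. With the replicate number as a block, edgeR called *Upk3a* lower (FDR 0.000232). On top of IL-1β, butyrate gave 1 call among the 8, *Krt7* as described, where 19.5% of all tested genes were called (8.41% higher and 11.1% lower), and the CPM did not overlap for 3 of the 8 (*Krt7*, *Krt8* and *Epcam*), against 26.9% of all tested genes. The medians of the 8 genes were -0.07 and -0.14 on the log2 scale, with 0.01 for all tested genes in both comparisons. Against control, both agents gave 3 calls (*Krt8* and *Spp1* higher, *Upk3a* lower), where 30.6% of all tested genes were called (15.8% higher and 14.8% lower), and the CPM did not overlap for these 3, against 38.5% of all tested genes. *Krt8*, *Spp1* and *Upk3a* were also the 3 genes called against butyrate alone, in the same directions, where 14.8% of all tested genes were called (9.92% higher and 4.86% lower). There the CPM did not overlap for 5 of the 8, against 24.2% of all tested genes.

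The difference between the effect of butyrate with and without IL-1β was tested as an interaction. edgeR called 0 of the 8 genes, where 0.0968% of all tested genes were called (0.043% higher and 0.0538% lower), and DESeq2 called 0. *Krt19* had the only unadjusted p under 0.05 (0.0265), with -0.78 on the log2 scale (95% interval -1.46 to -0.10, edgeR FDR 0.579). The interval was -1.18 to 1.03 for *Spp1* and -1.003 to 0.59 for *Upk3a*. For *Krt8* (-0.26 to 0.09), *Krt7* (-0.27 to 0.02), *Krt18* (-0.15 to 0.22) and *Epcam* (-0.17 to 0.11) the intervals were narrower.

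Other genes of the duct and of epithelia were counted in lists. The lists, too, were chosen with earlier results of these data known, so their counts of calls describe the listed genes only. For this and the following lists, the shares of all tested genes were as follows. IL-1β raised 11.2% and lowered 6.59%, butyrate against control raised 8.53% and lowered 11.4%, and butyrate on top of IL-1β raised 8.41% and lowered 11.1%. Of 10 transcription and cilia genes of the duct, 9 were tested, and IL-1β raised 1, *Glis3* (log2 0.21, SE 0.053, edgeR FDR 0.00335), a zinc finger factor. *Onecut1* had at most 3 counts in every library. Butyrate raised 1 as well, *Pkhd1*, the gene of the cilia protein fibrocystin (0.27, SE 0.074, edgeR FDR 0.00592), and butyrate on top of IL-1β gave 0 calls by edgeR and by DESeq2, with 2 of the 9 at an unadjusted p under 0.05. Of 14 genes of ion, bicarbonate and water transport, 10 were tested. IL-1β lowered the chloride channel gene *Ano1* (-1.32, SE 0.31, edgeR FDR 0.00186) and raised the bicarbonate cotransporter gene *Slc4a4* (0.30, SE 0.069, edgeR FDR 0.00149) and *Atp1b1*, a subunit of the sodium pump (0.21, SE 0.049, edgeR FDR 0.00139). Butyrate raised *Kcnn4* and *Slc4a4* and lowered *Slc12a2*, both against control (0.88, 0.33 and -0.75) and on top of IL-1β (0.98, 0.24 and -0.63).

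Among the surface and secreted genes of the duct, 9 of 14 were tested, and IL-1β raised 7 and lowered 1, with a median log2 fold change of 0.60. *Lcn2*, the gene of the siderophore-binding lipocalin 2, went from 0.763 CPM in control to 1364 with IL-1β (log2 10.78, SE 0.64, edgeR FDR 3.14e-08), and it had 2429 CPM with both agents and 3.24 with butyrate. *Pigr*, the receptor that carries immunoglobulins across epithelia, had a log2 fold change of 2.16 with an SE of 0.17 (edgeR FDR 2.56e-07), *Muc1*, a membrane mucin, had 1.93 (SE 0.17, edgeR FDR 5.76e-10) and *Clu*, a secreted chaperone, had 0.75 (SE 0.078, edgeR FDR 2.99e-07). *Tff1*, *Tff3*, *Mmp7* and *Gp2* had at most 3 counts in every library. On top of IL-1β, butyrate raised 2 and lowered 2 of the 9, among them *Prom1* (-0.86) and *Clu* (0.43), and against control it also raised 2 and lowered 2.

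Of 41 genes of epithelial junctions, adhesion and identity, 39 were tested, and IL-1β raised 16 of them, with a median of 0.17, and lowered 0 by edgeR and by DESeq2, with 2 lower at an unadjusted p under 0.05. The largest of the increases, among genes with an average log2 CPM of at least 0, were those of *Ehf* (1.96, SE 0.098, edgeR FDR 5.91e-12) and *Elf3* (1.37, SE 0.057, edgeR FDR 1.31e-16), which encode ETS factors of epithelia, of the claudin gene *Cldn1* (1.75, SE 0.33, edgeR FDR 0.000303) and of *Cgn*, the gene of the tight junction protein cingulin (1.30, SE 0.080, edgeR FDR 1.15e-10). Butyrate on top of IL-1β raised 7 and lowered 9, with *Cldn1* (-1.95), the protease gene *Prss8* (-1.37) and the desmosome genes *Dsc2* (-0.64) and *Pkp2* (-0.59) as the largest falls. Butyrate against control raised 8 and lowered 5.

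Of 46 other keratin genes, 10 were tested and 18 had at most 3 counts in every library. IL-1β raised 3 of the 10, *Krt90* (1.57), *Krt87* (1.47) and *Krt222* (0.41). Butyrate lowered *Krt80*, with a log2 fold change of -1.53 against control (edgeR FDR 2.68e-05) and of -1.87 on top of IL-1β (edgeR FDR 5.52e-06). The 46 genes together had 24.2 to 27.3 CPM in control and 29.0 to 30.5 with IL-1β.

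Markers of other cells moved with the conditions as well, and the shares of all tested genes given above for the lists apply here too. Of 16 macrophage markers, all tested, IL-1β raised 15 and lowered 1, *C1qa*, with a median of 2.22, and butyrate on top of IL-1β lowered 8. Of 18 acinar markers, 9 were tested, with 2 higher and 1 lower with IL-1β, and their sum was 178 to 191 CPM in control and 139 to 157 with IL-1β. Most of that sum came from *Bhlha15*, the gene called lower, and without it, a choice made after its values were seen, the other 17 summed to 26.9 to 41.5 CPM in control and 31.3 to 40.8 with IL-1β, which overlapped. Of the 8 mesothelial markers, butyrate lowered *Msln*, with a log2 fold change of -2.08 against control and of -2.04 on top of IL-1β. Among the other markers tested, IL-1β lowered 2 of 12 fibroblast and stellate cell genes, raised 1 of 8 endothelial genes and lowered 2 of 5 alpha cell genes. Of 4 Schwann cell and 3 delta cell genes, edgeR and DESeq2 called 0 with IL-1β, with 3 Schwann cell genes lower and 1 delta cell gene higher at an unadjusted p under 0.05. IL-1β lowered 7 and raised 1 of 9 beta cell markers. These 9 held 21.1 to 22.9% of all counts in control, 14.7 to 17.9% with IL-1β, 14.6 to 17.1% with both agents and 21.9 to 24.9% with butyrate, so the share left to other genes was larger with IL-1β. For the small increases of *Krt8*, *Krt7* and *Epcam*, the part of these shifts was not tested. All 3 remained called under the scaling alternatives, which leave the composition of the islets as it is and so cannot decide this.

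**Figure D5:**
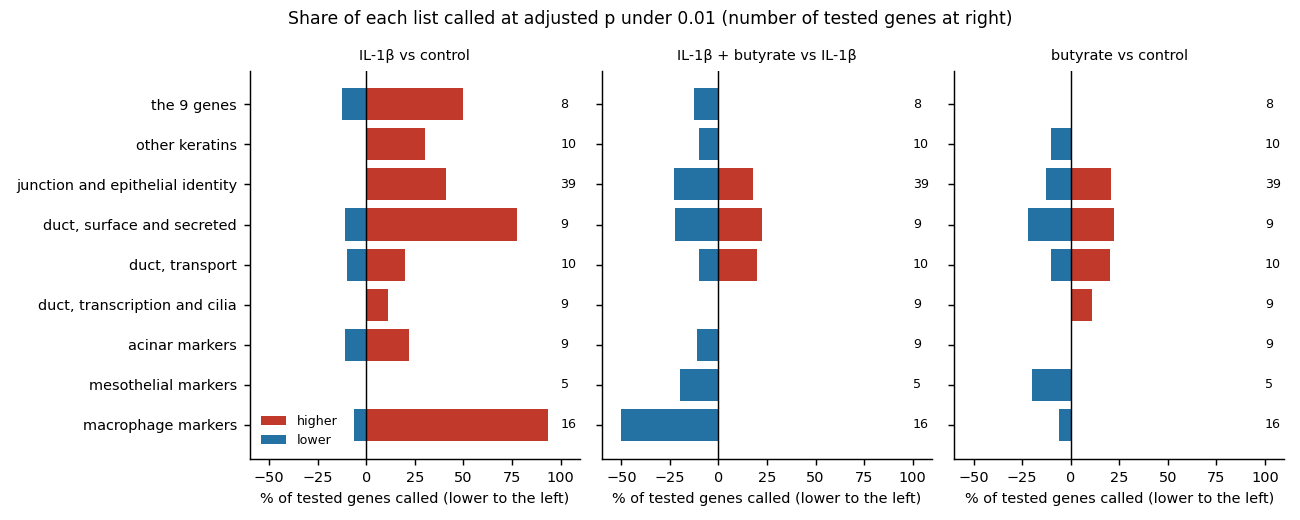
Share of the tested genes of each list called by edgeR at an adjusted p under 0.01 (horizontal axes, percent, higher to the right and lower to the left of 0) in 3 comparisons, with the number of tested genes at the right of each panel. With IL-1β, the macrophage list has 15 of 16 and the surface and secreted duct list 7 of 9 genes called higher, while the duct transcription and cilia list has 1 of 9. Of all tested genes, 11.2% were called higher with IL-1β.

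The genes with the most similar profile to each member were taken as those with the smallest root-mean-square difference of centred log2 CPM over the 16 libraries, which include all conditions, and they are given for 3 members. For *Spp1*, whose own root-mean-square deviation was 1.98, these were *Trnp1* (0.44), *Car8* (0.54) and *Micall2* (0.55). For *Upk3a* (1.33) the nearest were *Necab2* (0.66) and *4933432K03Rik* (0.69), so its nearest genes were not near. For *Krt8* (0.25) they were *Lima1*, *Itm2b* and *Lsm6*, each within 0.06 to 0.07. None of the 8 tested genes was among the 3 nearest of another.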

How the data were processed

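The labels name bcl2fastq 2.19.1, FastQC 0.11.7, MultiQC 1.7, STAR 2.5.3a, DESeq2 and the builds mm10 and GRCm38.p5. The authors mapped single-end reads to GRCm38 and deposited raw read counts per gene, whole numbers with no normalization, in 1 table of 16 columns. The annotation release, strand setting and read filter are not given in the sources used here, so reads of overlapping genes may be shared. Reads carried no molecular identifiers.

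Symbols, positions and transcript lengths came from GENCODE M21, which held 52489 of the 52636 identifiers. In R 4.3.3, edgeR 4.0.16 filtered genes (filterByExpr, 18587 left), scaled by TMM and fitted a robust quasi-likelihood model with 4 condition means to all 16 libraries. p-values were adjusted over all tested genes by the Benjamini-Hochberg method and called under 0.01. SE was derived from the F statistic. The ratios were tested with scipy 1.17.1. The fit was tested on simulated data. Alternatives covered scaling, filter, threshold, DESeq2 1.42.0, the samples in the fit, a replicate block and leaving out each library. Total counts ranged from 18635943 to 25955943, with a median of 22184715.

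The 9 genes and the lists were chosen with earlier results of these data known. Named genes were all members and, per list and comparison, at most 4 called genes with the largest log2 fold change and a mean log2 CPM not under 0, and for similar profiles the nearest 3 genes with a mean log2 CPM not under 1, given for *Spp1*, *Krt8* and *Upk3a* (1 gene is not reported here). Counts of a list are given in place of a list test.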

Additional observations from a re-analysis of the deposited data

Results flagged for a closer look

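In the screen of each gene's 4 libraries per condition, 36 groups in all, 1 library stood apart from the others of its group. *Krt7* in butyrate replicate 4 was at 301.2 CPM, while the other 3 butyrate libraries were between 317.7 and 318.6 CPM, and the gap was 94.6% of the range of the group. Chance marks about 1 in 20 such groups. The spread of the group as a whole was small (314 ± 8.5 CPM, SD, n = 4).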

How the results depend on the processing

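Under the 24 alternatives for each comparison, the calls of *Spp1*, *Upk3a*, *Krt8* and *Krt7* with IL-1β against control, and those of *Spp1*, *Upk3a* and *Krt8* with both agents against control and against butyrate, were kept in all 24. The causes of the changes that follow were not tested. For IL-1β against control, leaving out 1 library gave 4 to 6 calls among the 8 genes. *Epcam* lost its call in 3 of the 24, with an edgeR FDR of up to 0.0169. For both agents against IL-1β (1 call), an adjusted p under 0.05 gave 3, DESeq2 2, no filter 2, only the conditions compared 0, and leaving out 1 library 1 to 2. The 2 calls came without IL-1β replicate 3 or 4, IL-1β plus butyrate replicate 1 or 2, or butyrate replicate 1. For butyrate against control (0), an adjusted p under 0.05 gave 1 and DESeq2 1. For both agents against control (3), library size only gave 5. For both agents against butyrate (3), an adjusted p under 0.05 gave 5, library size only 6, no filter 5, only the conditions compared 5, and leaving out 1 library 3 to 5, with 5 without IL-1β replicate 2. No other scaling shifted the median of all genes by more than 0.0978 on the log2 scale.

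The replicate number as a block gave 3 calls for both agents against IL-1β (*Krt7*, *Krt8* and *Upk3a* lower, the latter -0.56, edgeR FDR 0.00242), 1 for butyrate against control (*Upk3a*, -0.37, edgeR FDR 0.000232), 5 for both agents against butyrate (with *Krt18* and *Epcam* added, edgeR FDR 9.6e-05 and 0.00111), 7 for IL-1β against control (with *Krt18* and *Krt19* added, edgeR FDR 0.00106 and 0.00138), 4 for both agents against control (with *Krt18*, edgeR FDR 0.00472) and 0 for the interaction. Over all tested genes the block also gave more calls, in this order 4983 (3629 without it), 4879 (3697), 3750 (2747), 4537 (3311), 6899 (5688) and 132 (18). Same-numbered libraries of different conditions correlated in their deviations with r from 0.05 to 0.40, over 0.1 in 17 of 24 pairs. Of 48 comparisons, 40 were best with the own number. The running sample numbers in the library names also group the conditions by replicate number. Same-numbered libraries may therefore come from the same experiment, although the labels do not state it. The fit without the block leaves such a pairing out, so the calls it missed can depend on that choice.

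Sign changes occurred in 8 results, none of them called. With upper-quartile scaling, *Krt18* with both agents against IL-1β was 0.0154. With library size only, against butyrate *Krt19* was 0.0557 and *Sox9* 0.0352, and *Epcam* in the interaction was 0.00659. Leaving out 1 library gave -0.112 to 0.0399 for *Krt18* (both agents against IL-1β), -0.0185 to 0.0364 for *Krt7* (both agents against control), -0.18 to 0.18 for *Krt19* and -0.153 to 0.0311 for *Sox9* (both agents against butyrate), and in the interaction -0.0380 to 0.114 for *Krt18*, -0.0374 to 0.198 for *Sox9*, -0.27 to 0.26 for *Spp1* and -0.0691 to 0.00574 for *Epcam*. Counts were low for *Krt19*, *Sox9* and *Cftr*, with at most 75, 64 and 5 per library, and the part of depth in their results was not tested.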
